A study of Homo sapiens with 4 samples.

Results

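The 7 UGT2B genes UGT2B17, UGT2B15, UGT2B10, UGT2B7, UGT2B11, UGT2B28 and UGT2B4 were examined as a group, out of 20136 protein-coding genes. They were chosen by name, as UDP-glucuronosyltransferases of the 2B subfamily, and every peak that overlapped the span of a gene or the 50 kb on either side of it was taken. The cells were LNCaP, a line from human prostate cancer that responds to androgen, and all libraries came from it. One ChIP-seq library for the acetylated histone H3K27Ac was from cells in charcoal-stripped serum given 10 nM dihydrotestosterone (DHT) for 4 h, and the other from cells in the same serum given ethanol vehicle, both at passage 20. Another library, for the transcription factor TCF7L2, was from untreated cells at passage 15, grown without stripping of the serum. With 1 library per condition the spread over cultures is unknown, no test between conditions was possible, and intervals cover counting error alone. Heights are tags at the top of a peak, as the authors' peak caller gave them, and the number of reads behind each library is unknown. Coordinates are on hg19.

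UGT2B enzymes join glucuronic acid, taken from UDP-glucuronic acid, to steroids, bile acids and drugs, which makes these molecules soluble and ready for excretion. In the prostate, glucuronidation is a route by which DHT and its metabolites are inactivated. UGT2B15 and UGT2B17 are the main androgen-conjugating enzymes of this tissue, and their RNA is known to fall in LNCaP cells given androgen. H3K27Ac is an acetyl mark of active enhancers and promoters, so a taller peak means that more DNA was recovered with the mark. The genes arose by duplication and lie side by side on chromosome 4 among pseudogenes of the same family. Their coding sequences, between 1584 and 1590 bp long, were 84.2 to 97.0% identical, with UGT2B11 and UGT2B28 the closest pair at 97.0% and UGT2B17 and UGT2B15 next at 96.5%. Tags from stretches that are the same in several copies cannot be placed with certainty, and how the authors' alignment placed them is not given in the sources used here.

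Sequences around the start of 4 of the 7 genes, from 250 bases before to 50 after it, are shown. They show how far the copies have diverged, and H3K27Ac peaks lay over all 4 starts. The promoter table used, of GRCh38.p14, held only these 4, and UGT2B17, UGT2B28 and UGT2B4 are missing from it. The 4 are RefSeq sequences from that table, placed on hg19 by an exact match. The capitals mark the longest run that all 4 hold, 12 bases long, which lies between 175 and 182 bases before the start.
UGT2B15 (chr4:69536321-69536620, minus strand): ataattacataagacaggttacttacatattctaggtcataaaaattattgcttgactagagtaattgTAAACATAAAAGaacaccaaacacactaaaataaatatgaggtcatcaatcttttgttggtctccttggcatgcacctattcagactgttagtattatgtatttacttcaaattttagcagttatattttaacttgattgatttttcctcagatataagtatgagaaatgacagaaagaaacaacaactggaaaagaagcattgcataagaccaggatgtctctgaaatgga
UGT2B10 (chr4:69681462-69681761, plus strand): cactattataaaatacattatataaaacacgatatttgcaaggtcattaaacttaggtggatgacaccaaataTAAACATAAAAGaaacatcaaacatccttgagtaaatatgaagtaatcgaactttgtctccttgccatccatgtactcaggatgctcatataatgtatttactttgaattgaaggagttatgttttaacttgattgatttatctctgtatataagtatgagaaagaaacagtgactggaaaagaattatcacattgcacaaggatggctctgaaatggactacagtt
UGT2B7 (chr4:69961942-69962241, plus strand): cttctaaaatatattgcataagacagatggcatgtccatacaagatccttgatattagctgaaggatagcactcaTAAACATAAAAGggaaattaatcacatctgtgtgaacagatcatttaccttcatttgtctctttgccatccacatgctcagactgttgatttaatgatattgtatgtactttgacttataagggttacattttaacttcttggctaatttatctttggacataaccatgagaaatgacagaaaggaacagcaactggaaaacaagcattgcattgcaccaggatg
UGT2B11 (chr4:70080417-70080716, minus strand): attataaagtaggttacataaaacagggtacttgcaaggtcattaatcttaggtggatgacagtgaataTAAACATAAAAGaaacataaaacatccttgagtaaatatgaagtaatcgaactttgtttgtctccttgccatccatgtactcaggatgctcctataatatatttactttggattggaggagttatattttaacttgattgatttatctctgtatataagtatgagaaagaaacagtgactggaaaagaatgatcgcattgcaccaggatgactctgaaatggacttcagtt
The run was found on the sense strand of 5 of the 35116 promoters of the table, these 4 and that of GABRG3-AS1. Its presence in these 4 follows from how it was chosen. Whether UGT2B17, UGT2B28 and UGT2B4 hold it was not tested. UGT2B10 and UGT2B11 were 90.1% identical over the window, and the other pairs were 63.1 to 70.6% identical. These promoters held 30.3 to 35.0% G and C, against a median of 58.7% over all promoters. The forkhead motif TGTTTAC, searched on both strands, was found in that of UGT2B15 but in none of the other 3 windows, and 3.42% of all promoters held it.

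The surroundings of the 7 genes merged into 4 stretches of 839 kb in all, from chr4:69352891-70441732. They held 46 DHT peaks and 45 vehicle peaks. With DHT the heights ranged from 10 to 152 tags with a median of 30, and with vehicle from 9 to 168 tags with a median of 29. Heights summed to 2170 tags with DHT and 2157 tags with vehicle, over 155 kb and 164 kb of covered sequence. Over the genome, the median height was 23 tags with DHT and 22 tags with vehicle. Joining overlapping peaks gave 48 regions, of which 42, or 87.5%, had a peak in both lists, where 74.3% of all regions of the genome did. Another 3 regions had a DHT peak only and 3 a vehicle peak only. Tall regions are more often shared. Of regions reaching 50 tags in either library, 17 of 18 here and 14081 of 14178 in the genome had a peak in both lists.

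**Figure D1:**
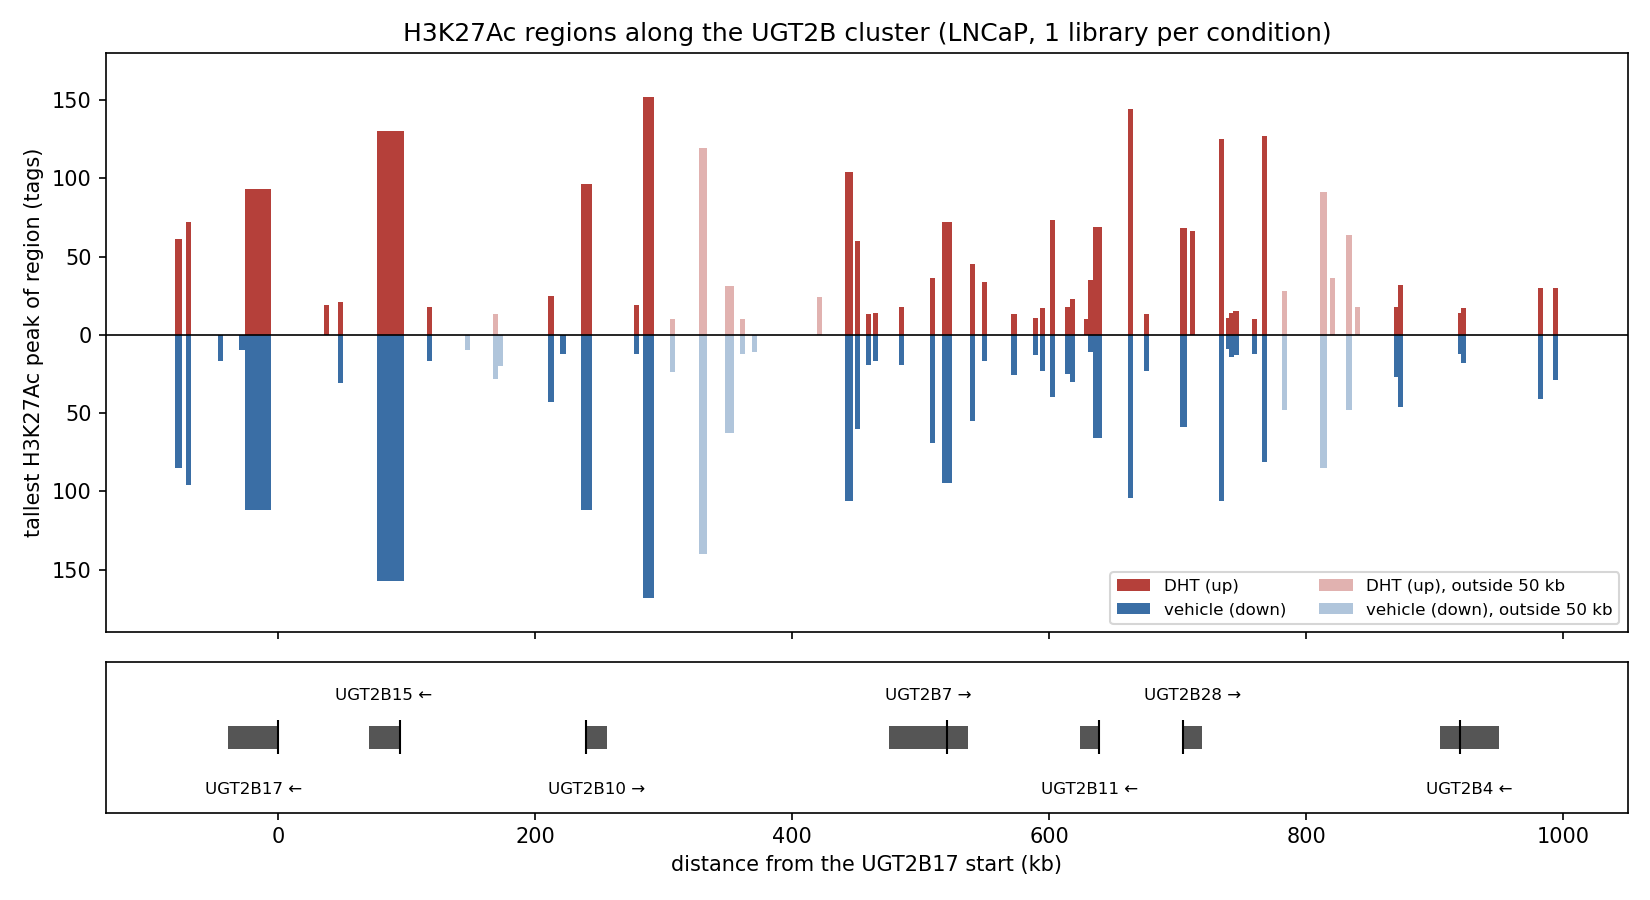
Tallest H3K27Ac peak of each region, in tags, with DHT (upward bars) and vehicle (downward bars), against the distance from the UGT2B17 start in kb; pale bars are regions over 50 kb from any of the 7 genes, and the lower panel shows the genes, their direction and their starts. The widest blocks, over UGT2B17 and UGT2B15, reached 93 and 130 tags with DHT against 112 and 157 tags with vehicle, while the tall bars beside UGT2B11 and UGT2B28 stood higher with DHT.

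Over the 42 shared regions, the median ratio of heights, DHT over vehicle, was 0.852, against 1.07 over all shared regions of the genome. The DHT peak was lower in 26 regions, higher in 14 and equal in 2. A fold limit was set at a ratio of heights of 5 to 4 in either direction. Of the 42, 15 were lower with DHT by at least this limit, where 17.0% of all shared regions were, and 6 were higher by it, where 27.8% were. Among the 17 shared regions that reached 50 tags in either library, 4 were lower by this limit, where 13.0% of all such regions were, and 3 were higher, where 27.1% were.

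The direction differed along the cluster. From UGT2B17 to UGT2B7, 10 of the 11 shared regions of at least 50 tags were lower with DHT, 1 was equal and 0 were higher, and their ratios ranged from 0.522 to 1.0 with a median of 0.828. Beside UGT2B11 and UGT2B28, all 6 such regions were higher, with ratios from 1.045 to 1.825 and a median of 1.28. The lowest of these ratios, at the UGT2B11 promoter, was below the genome median of 1.07. These 6 are not separate observations: 4 are copies of each other, 90.5 to 94.0% identical, and those at the UGT2B11 and UGT2B28 promoters are 95.6% identical. On the first side, the regions at the starts of UGT2B10 and UGT2B27P were 94.3% identical. With lower regions included, 15 of 19 were lower and 3 higher on the first side, and 9 of 17 were higher and 7 lower on the second. UGT2B4 had no region of 50 tags, and 4 of its 6 shared regions were lower. The boundary between the sides was placed after the values were seen. The sides also differ in how unique their sequence is: of 32-base words in the 10 lower regions, 54.2 to 99.3% occurred once in the genome, against 45.0 to 56.7% in the 6 higher regions. Of the regions on the first side in which at least 80% of words occurred once, 8 of 11 were lower and 2 higher. Beside UGT2B11 and UGT2B28, 2 shared regions met that limit, 1 lower and 1 higher, and none of the 6 tall ones did. The part that misplaced tags have in the higher values there was not tested.

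**Figure D2:**
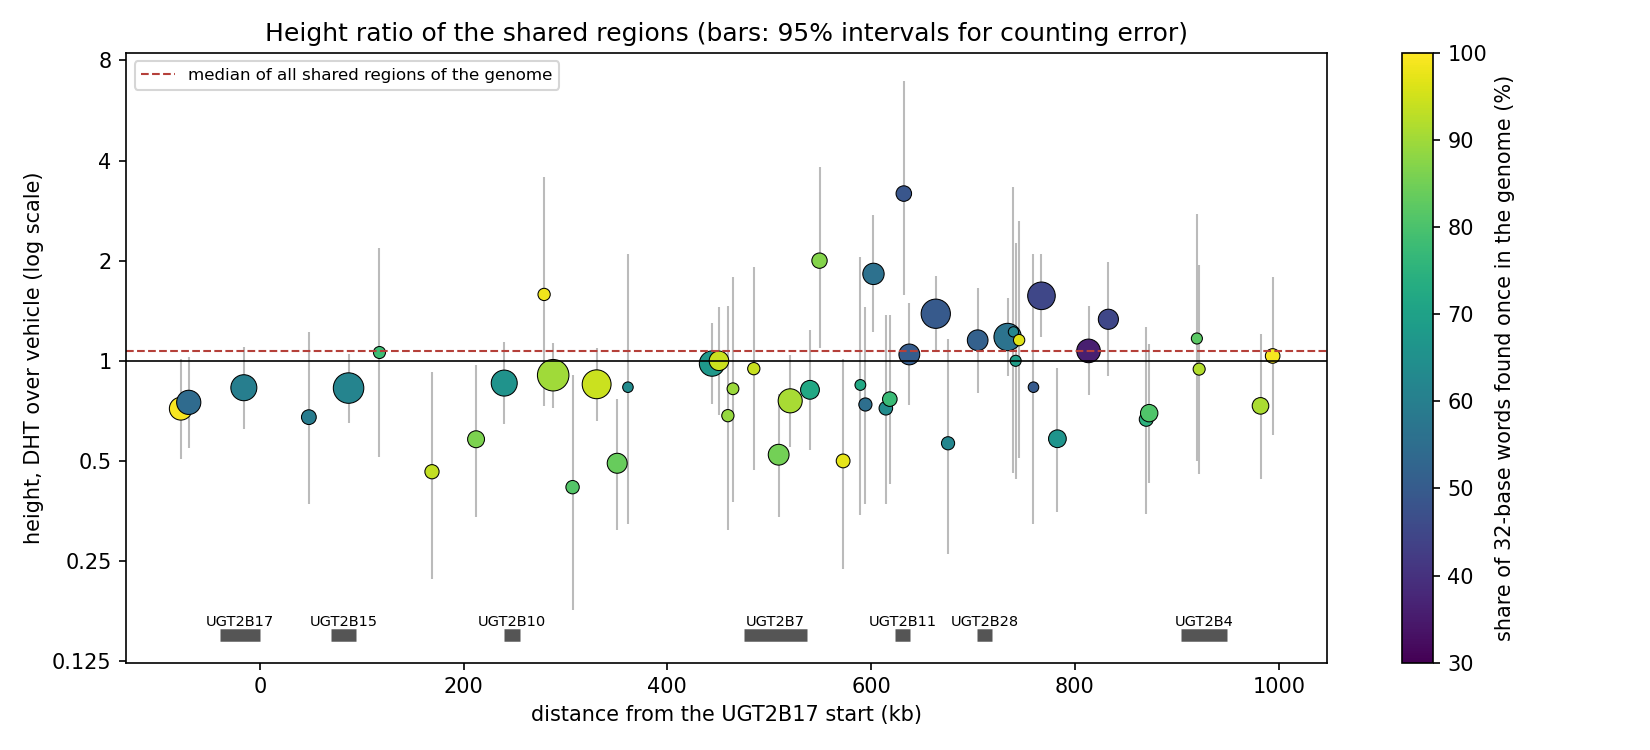
Height ratio of each shared region, DHT over vehicle on a log scale, against the distance from the UGT2B17 start in kb; vertical lines are 95% intervals for counting error, larger points are taller regions, color is the share of 32-base words found once in the genome, and the dashed line is the genome median of 1.07. Large points from UGT2B17 to UGT2B7 lie at or below 1, and those beside UGT2B11 and UGT2B28 lie above 1 and are darker, with 45.0 to 56.7% of words found once.

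UGT2B15 and UGT2B17, which conjugate androgens, each lay under a broad block of H3K27Ac. The block of UGT2B15 (ENSG00000196620, minus strand, chr4:69512315-69536370) ran over 21.2 kb, chr4:69518520-69539759, covering the promoter and exons. It reached 130 tags with DHT against 157 tags with vehicle, a ratio of 0.828 (95% interval 0.651 to 1.05). This was the tallest promoter peak of the 7 genes in both libraries. Over UGT2B17 (ENSG00000197888, minus strand, chr4:69402891-69442131) the block was 20.7 kb wide, chr4:69416010-69436709, listed as 2 peaks with DHT and as 1 with vehicle. Its height was 93 tags with DHT against 112 tags with vehicle, a ratio of 0.83 (0.624 to 1.1). Both genes thus had a lower height with DHT, with intervals of the ratio that include 1. This was not particular to them. Of the 6 promoter peaks of the group, 3 were lower with DHT, those of UGT2B15, UGT2B10 and UGT2B7. Another 3 were higher, among them that of UGT2B28, which also acts on androgens. The median ratio over all shared regions of the genome, 1.07, lies above the UGT2B15 interval and within that of UGT2B17. By the starts annotated here, UGT2B17 was the only one of the 7 without a promoter peak in either library. A promoter is the stretch that begins 1000 bp before an annotated start and ends 100 bp after it. The nearest edge of the UGT2B17 block lay 5.33 kb inside the annotated gene, in a region that covers an exon. However, a site 853 bases after the UGT2B15 start has a near copy 8748 bases after the annotated UGT2B17 start, within the block. Whether UGT2B17 transcripts start inside the block was not tested, so H3K27Ac over a start of this gene is not excluded. A stretch of 6673 bp common to both blocks was 94.2% identical.

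UGT2B10, which acts on amines such as nicotine, and UGT2B7, which conjugates many drugs including morphine, lie next along the chromosome. The promoter peak of UGT2B10 (ENSG00000109181, plus strand, chr4:69681712-69697741) had 96 tags with DHT against 112 tags with vehicle, a ratio of 0.857 (0.646 to 1.14). The tallest peak of the whole cluster, chr4:69725910-69734009, lay past the end of UGT2B10 and had 152 tags with DHT against 168 tags with vehicle. In this region 89.9% of 32-base words occurred once. For UGT2B7 (ENSG00000171234, plus strand, chr4:69917081-69978705) starts are annotated at several places, and the one used here, 69962192, lies inside the span. The promoter peak had 72 tags with DHT against 95 tags with vehicle, a ratio of 0.758 (0.55 to 1.04). A region within the annotated span and centered 10.9 kb before this start, chr4:69949680-69952859, had 36 tags with DHT against 69 tags with vehicle. Its ratio of 0.522 (0.339 to 0.792) was the lowest among the regions of at least 50 tags within 50 kb of the genes, its interval stayed below 1, and 85.0% of its words occurred once. Both promoter peaks were lower with DHT, with intervals that reach past 1. The genome median of 1.07 lies within the UGT2B10 interval and above that of UGT2B7. The tallest peak near UGT2B7, 104 tags with DHT against 106 tags with vehicle, lay at the start of the pseudogene UGT2B27P instead.

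UGT2B11 (ENSG00000213759, minus strand, chr4:70065669-70080466) and UGT2B28 (ENSG00000135226, plus strand, chr4:70146193-70160768) start in opposite directions from a shared stretch. UGT2B28 is known to act on androgens and estrogens. The promoter peak of UGT2B11 had 69 tags with DHT against 66 tags with vehicle, a ratio of 1.045 (0.735 to 1.49), and that of UGT2B28 had 68 tags with DHT against 59 tags with vehicle, a ratio of 1.153 (0.801 to 1.66). Between the genes, the region chr4:70103430-70107509 had 144 tags with DHT against 104 tags with vehicle, a ratio of 1.385 (1.07 to 1.8). It counts for both genes, since it is within 50 kb of each. Past the UGT2B11 end, chr4:70042800-70045859 had 73 tags with DHT against 40 tags with vehicle, a ratio of 1.825 (1.22 to 2.75). Past the UGT2B28 end, chr4:70174050-70177949 had 125 tags with DHT against 106 tags with vehicle, and chr4:70207170-70211249 had 127 tags with DHT against 81 tags with vehicle. The ratios of these distal regions, 1.179 to 1.825, were above those of both promoters, and each of the 4 intervals overlaps those of both promoters.

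UGT2B4, known for its action on bile acids, had the lowest H3K27Ac of the group. Its promoter peak (ENSG00000156096, minus strand, chr4:70345883-70391732) had 14 tags with DHT against 12 tags with vehicle. The tallest of its peaks, chr4:70313400-70316489, had 32 tags with DHT against 46 tags with vehicle, a ratio of 0.696 (0.429 to 1.12). By the annotated starts, 6 of the 7 genes had a promoter peak in each library. Over all protein-coding genes, 52.9% had one with DHT and 51.7% with vehicle. By vehicle height the promoter peaks ran UGT2B15, UGT2B10, UGT2B7, UGT2B11, UGT2B28 and UGT2B4. The 95% Poisson interval of each overlaps that of the next in this order, except that UGT2B4 lies below UGT2B28 without overlap.

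**Figure D3:**
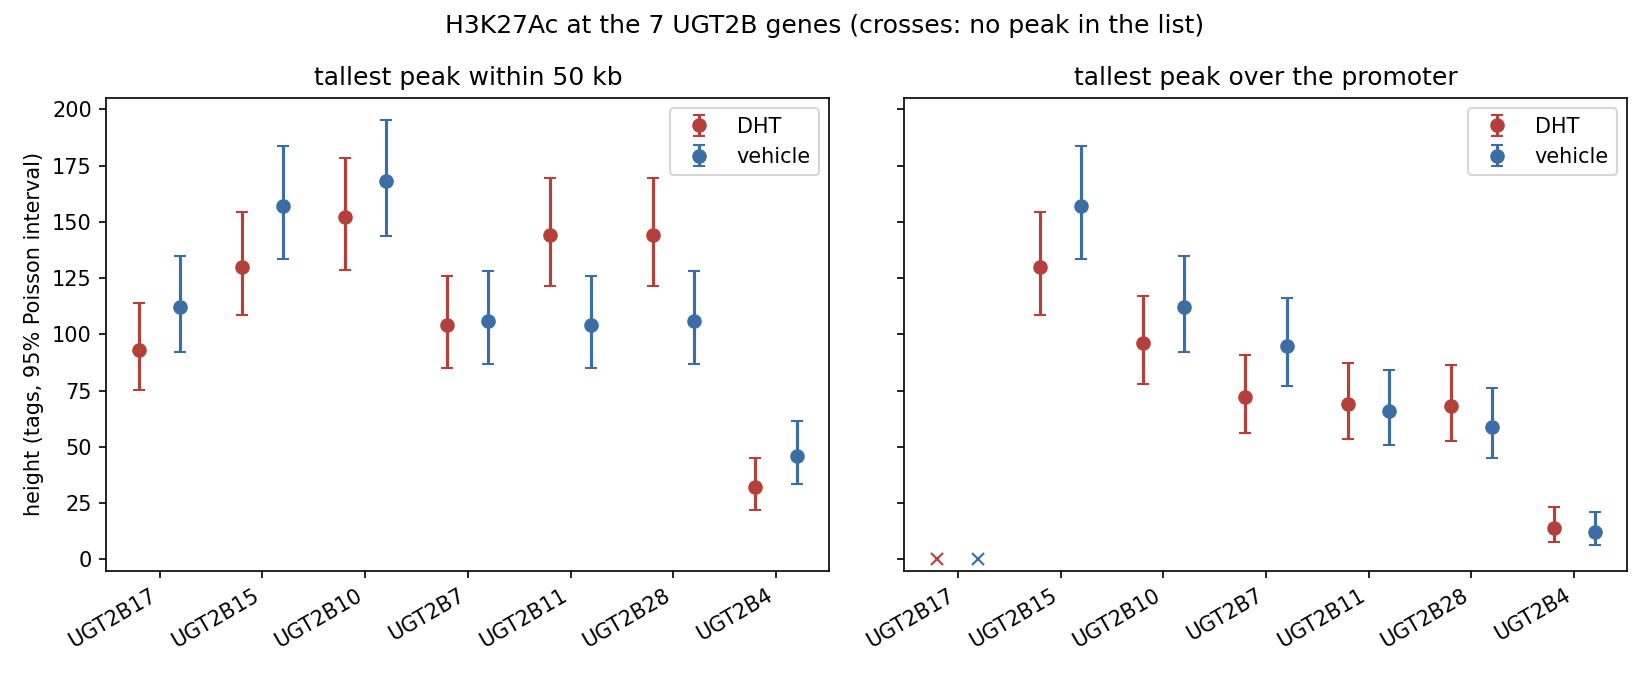
Tallest H3K27Ac peak, in tags, within 50 kb of each gene (left panel) and over its promoter (right panel), DHT beside vehicle, with 95% Poisson intervals; crosses mark the absence of a peak from the list. UGT2B11 and UGT2B28, at 144 tags with DHT against 104 and 106 tags with vehicle, are the genes whose tallest peak is higher with DHT, and the intervals of their promoter peaks overlap.

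Taking the tallest peak within 50 kb, 2 of the 7 genes, UGT2B11 and UGT2B28, were higher with DHT by at least the limit of 5 to 4, where 21.3% of the 17367 genes with a peak in both lists were. These 2 share their tallest DHT peak, and the tallest vehicle peak of UGT2B28 lay in another region, past its end. Only UGT2B4 was that much lower, where 6.34% of genes were. The median ratio over all genes was 1.09. Within 10 kb of the genes, the ratio was 1.045 at UGT2B11 and 1.153 at UGT2B28, so 0 genes were higher by that limit there, and by heights summed over 50 kb only UGT2B28 was, at 1.409.

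Other regions lie between and beside these peaks. Past the UGT2B17 end, chr4:69362040-69366959, which reaches into the protease gene TMPRSS11E, had 61 tags with DHT against 85 tags with vehicle, and 99.3% of its words occurred once. Its neighbour chr4:69370110-69374429 had 72 tags with DHT against 96 tags with vehicle. Both were lower with DHT, with ratios of 0.718 (0.508 to 1.01) and 0.75 (0.545 to 1.03). Past the UGT2B7 end, chr4:69980760-69983249 had 45 tags with DHT against 55 tags with vehicle, and chr4:69990270-69992459, over an unnamed pseudogene, had 34 tags with DHT against 17 tags with vehicle. That region over the pseudogene went against most of its side, at a ratio of 2.0 (1.09 to 3.82), with 87.0% of its words found once. The vehicle-only regions were low, at 17 and 10 tags at UGT2B17 and 12 tags before UGT2B10. Of the 3 DHT-only regions, that between UGT2B17 and UGT2B15 had 19 tags and that in UGT2B11 had 10 tags.

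The region found with DHT but not with vehicle that stood tallest lay inside UGT2B28, chr4:70151790-70154519, centered 6.96 kb after its start, overlapping an exon. It had 66 tags with DHT and no peak in the vehicle list, whose lowest peaks have 9 tags. Of the 12745 DHT regions of at least 50 tags in the genome, 0.761%, or 97, had no vehicle peak, and 18 of these were as tall as this one or taller. The matching place of UGT2B11, 6.36 kb after its start, chr4:70072170-70076039, had 35 tags with DHT against 11 tags with vehicle, a ratio of 3.182 (1.58 to 6.95). These 2 regions were 95.1% identical. A pair of pseudogenes beyond the 50 kb limit had further copies. That in UGT2B25P, chr4:70261080-70263149, had 36 tags with DHT, and that in UGT2B24P, chr4:70280910-70282499, had 18 tags with DHT, with no vehicle peak at either. These 4 copies, at least 93.6% identical, were thus higher with DHT or present with DHT alone. Less similar regions had fewer tags with DHT: a region in UGT2B26P, 84.6% identical to that of UGT2B11 over 623 bp, had 13 tags with DHT against 19 tags with vehicle, and one near UGT2A3, 83.9% identical over 403 bp, had 31 tags with DHT against 63 tags with vehicle. Between 48.6 and 56.5% of the 32-base words of the 4 copies occurred once, and tags may have been placed in the wrong copy, so the 4 are not counted as separate observations.

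The longest run that these 4 copies hold without a difference is 124 bases and is shown because tags that lie inside it cannot be told apart by their sequence. It is printed on the gene strand, at its place in UGT2B11, with a forkhead motif in capitals.
Run shared by the 4 copies (chr4:70073391-70073514, minus strand): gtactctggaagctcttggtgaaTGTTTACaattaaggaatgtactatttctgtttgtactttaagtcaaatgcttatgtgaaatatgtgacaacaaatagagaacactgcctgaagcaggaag
The same letters, including TGTTTAC, are at chr4:70153154-70153277 in UGT2B28. Over the cluster, 17 of the 18 regions of at least 50 tags held TGTTTAC on either strand, 94.4%, where 54.4% of such regions of the genome did. Per kb of sequence the values were closer, at 0.241 sites in the cluster and 0.203 over all such regions. TGTTTAC was one of several motifs searched, not all of which are reported here. The TCF7L2 motif CTTTGAT was in 9 of the 18 cluster regions of at least 50 tags and in 44.5% of such regions of the genome.

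By a limit of 90% identity over at least 50% of the shorter region, set after the values were seen, 26 of the 62 regions along the cluster fell into 8 families of copies, 19 of the 26 within 50 kb of the genes. All regions were higher with DHT in 3 families and lower in 3. One family had both directions. The remaining family, beside UGT2B11 and UGT2B28, had 2 regions lower and 1 equal. Its regions had 17, 14 and 10 tags with DHT against 23, 14 and 12 tags with vehicle. The 4 distal regions beside UGT2B11 and UGT2B28 described above were copies of each other, 90.5 to 94.0% identical, and all 4 were higher. Some less similar regions below the 90% limit were lower or without a DHT peak. A region in UGT2B17, 85.4 to 86.3% identical to the 4 over nearly its whole length, had no DHT peak and 10 tags with vehicle, another past the UGT2B17 end, 81.6 to 83.0% identical, had none with DHT and 17 tags with vehicle, and the region before the UGT2B7 start, 80.6 to 82.4% identical over part of it, had 36 tags with DHT against 69 tags with vehicle. The longest run that the 4 distal copies hold without a difference, 56 bases, is shown because it is the same in all 4. Whether it is found elsewhere in the genome was not tested.
Run shared by the distal copies (chr4:70044694-70044749, minus strand): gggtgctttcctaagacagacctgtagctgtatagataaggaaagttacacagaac
A family of 3, near UGT2B10, before UGT2B28 and past UGT2B28, was lower in each. Its regions had 25, 13 and 28 tags with DHT against 43, 23 and 48 tags with vehicle, in that order. The family with both directions lay over the starts of UGT2B10, UGT2B11, UGT2B28 and of pseudogenes, among them UGT2B27P, UGT2B25P and UGT2B24P. It was lower at UGT2B10 and UGT2B27P. At the UGT2B25P start it had 91 tags with DHT against 85 tags with vehicle, and at the UGT2B24P start 64 tags with DHT against 48 tags with vehicle. Whether copies moved together because they share tags was not tested.

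**Figure D4:**
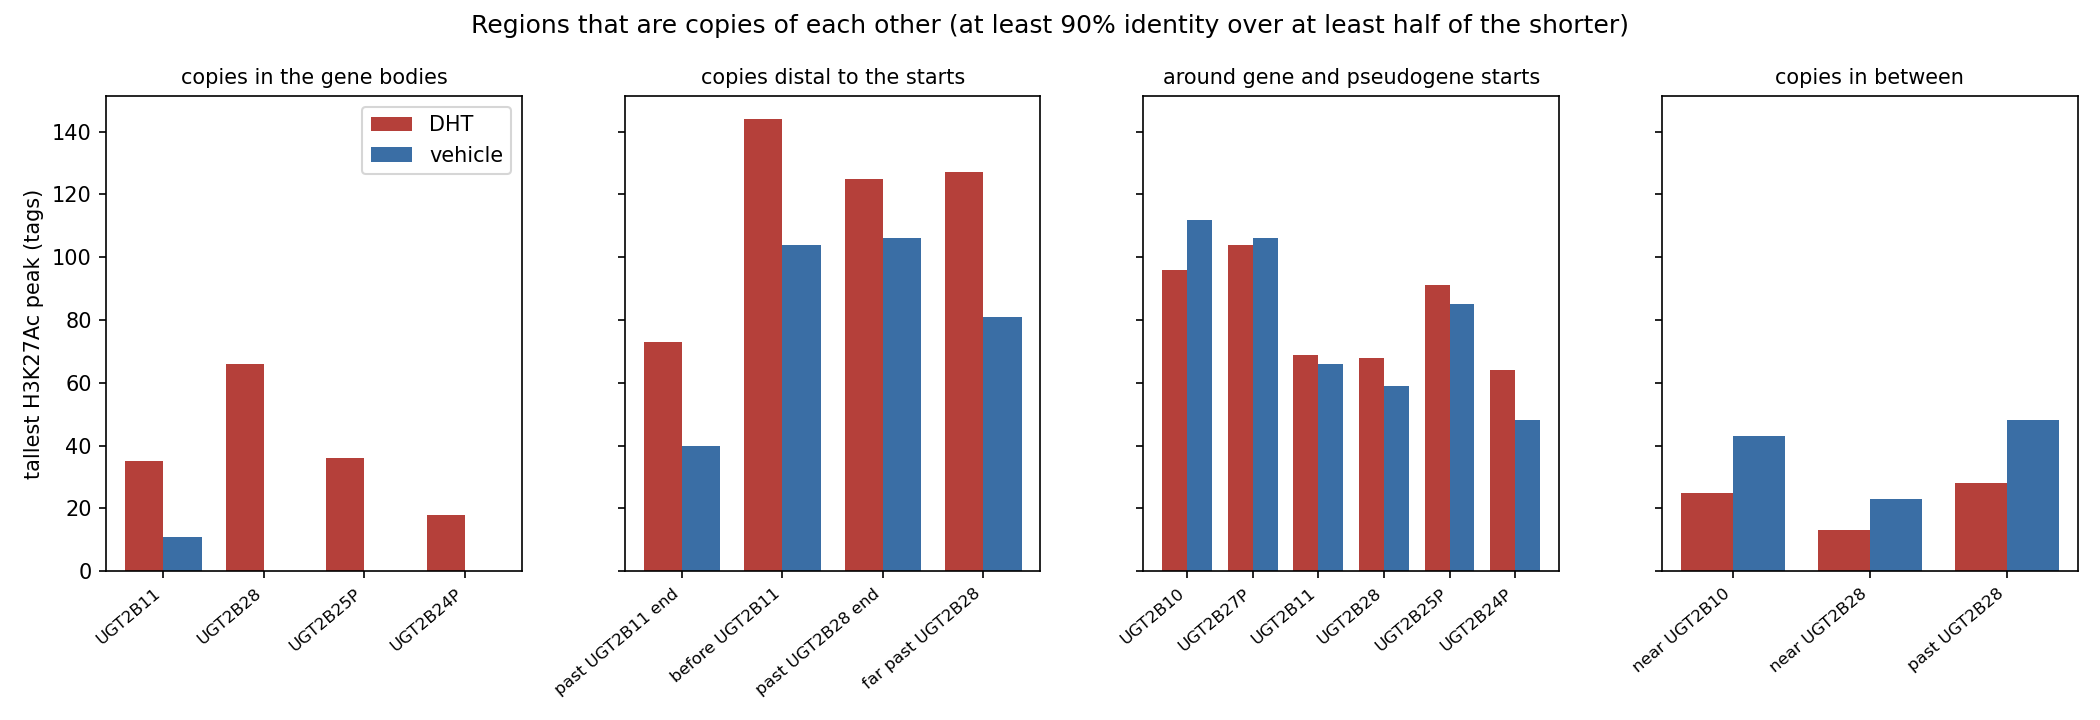
Tallest H3K27Ac peak, in tags, with DHT and vehicle for 4 families of copied regions, named by the gene or pseudogene they lie in or near; a missing bar means no peak in that list. All 4 copies in the gene bodies (35, 66, 36 and 18 tags with DHT against 11 tags with vehicle at UGT2B11 alone) and all 4 distal copies are higher with DHT, and the family of 3 in the last panel is lower.

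TCF7L2, a DNA-binding partner of beta-catenin in Wnt signaling, had 0 peaks within 50 kb of the 7 genes. Over the genome, 65.3% of 20136 genes had one. None of the 18 regions of at least 50 tags overlapped a TCF7L2 peak, where 19.0% of such regions of the genome did. The nearest TCF7L2 peaks were chr4:69215760-69215999, with 19 tags and 187 kb from UGT2B17, and chr4:71442990-71443559, with 49 tags and 1050 kb from UGT2B4. The 2.23 Mb between them held 89 DHT peaks and 84 vehicle peaks of H3K27Ac. Of the 20578 gaps between neighbouring TCF7L2 peaks, 17 held as many vehicle peaks or more, and 115 were as long or longer. The TCF7L2 list starts at 15 tags, so lower binding would not be listed, and its serum and passage differ from those of the H3K27Ac libraries. How TCF7L2 tags from copied stretches were placed is not given, and whether peaks were missed there was not tested.

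**Figure D5:**
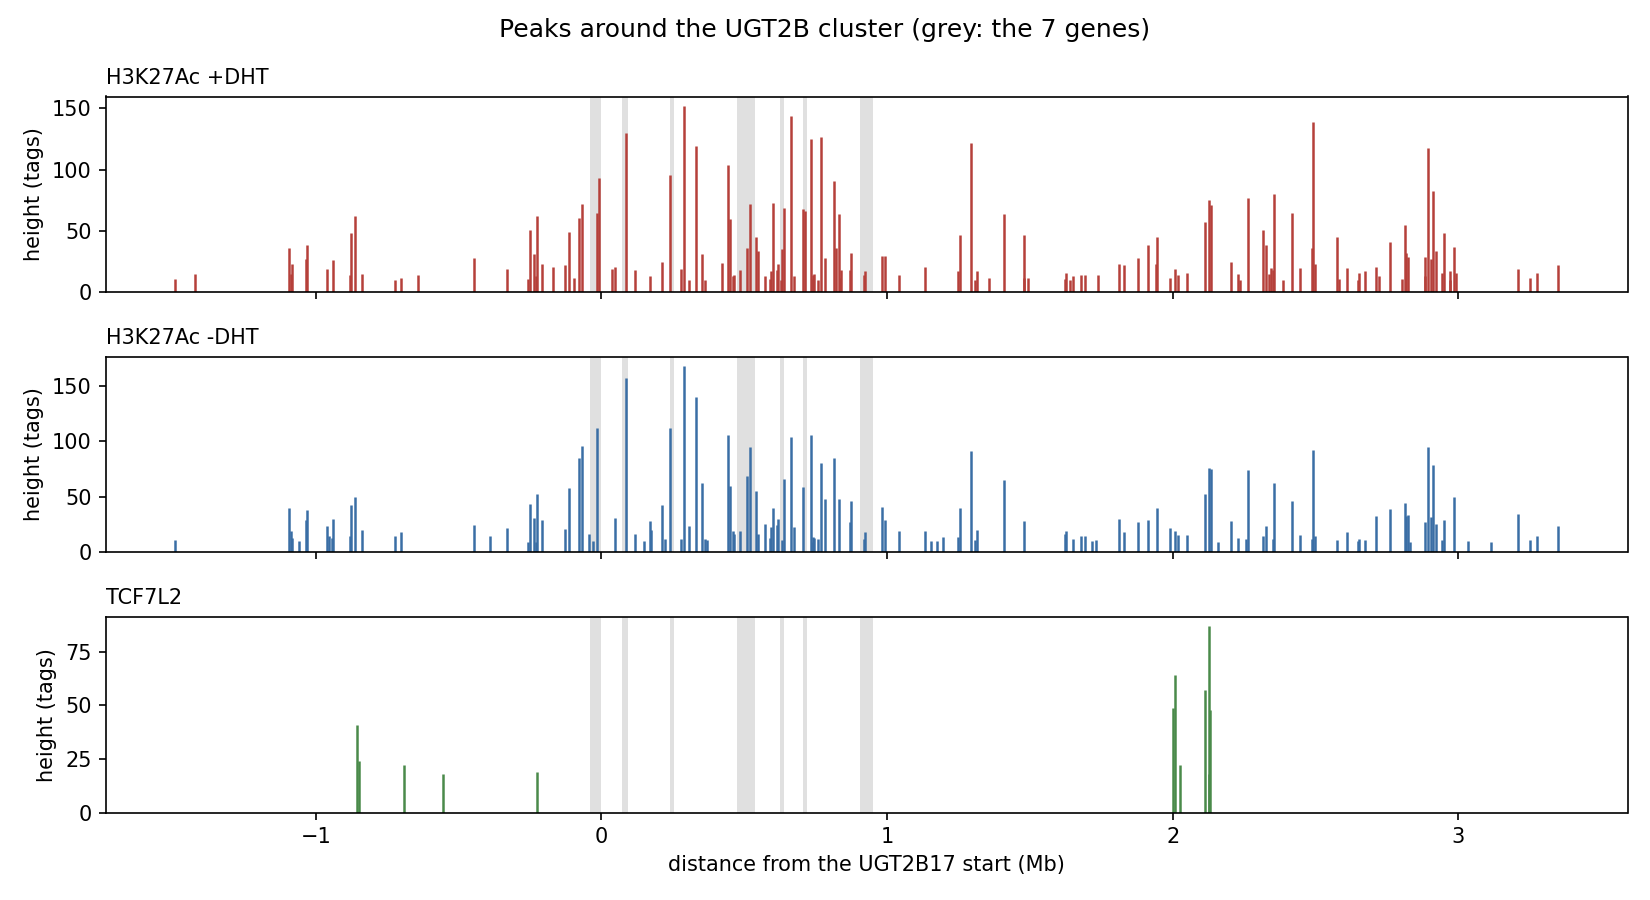
Height in tags of every peak of the H3K27Ac +DHT, H3K27Ac -DHT and TCF7L2 lists against the distance from the UGT2B17 start in Mb, with the 7 genes in grey. The H3K27Ac peaks fill the cluster in both libraries, and the TCF7L2 panel is empty for 2.23 Mb around it.

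Other genes of the pathway were taken from a list of 21, of which 19 had a peak in both lists. Within 50 kb, 6 of the 19 were lower with DHT by at least the limit of 5 to 4 and 2 were higher by it, beside the 6.34% and 21.3% of all genes, with a median ratio of 0.883 against 1.09 over all genes. These genes share peaks: UGT2A1 and UGT2A2 have the same peak of 30 tags with DHT against 41 tags with vehicle, which also lies near UGT2B4, and UGT1A3, UGT1A4, UGT1A6 and UGT1A9 have the same peak of 106 tags with DHT against 120 tags with vehicle, which sets the median. UGT1A1, which conjugates bilirubin, had 23 tags with DHT against 39 tags with vehicle. UGT1A6, a UGT for phenols, had a promoter peak of 43 tags with DHT against 59 tags with vehicle. In the supply of UDP-glucuronic acid, UGDH, the dehydrogenase that makes it, had 118 tags with DHT against 121 tags with vehicle by its tallest peak, and a promoter peak of 71 tags with DHT against 63 tags with vehicle. SLC35D1, its carrier into the endoplasmic reticulum, had 12 tags with DHT against 20 tags with vehicle. Both genes that were higher export glucuronides and other conjugates from cells. ABCC4 had 149 tags with DHT against 112 tags with vehicle, and 61 tags with DHT against 29 tags with vehicle over its promoter. ABCC2 had 49 tags with DHT against 36 tags with vehicle. ABCC3, the other exporter on the list, was not higher, at 130 tags with DHT against 131 tags with vehicle. HSD17B6, which oxidizes androgen metabolites, had 119 tags with DHT against 105 tags with vehicle. UGT2A3, in the same cluster, had 119 tags with DHT against 140 tags with vehicle.

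In the 3 libraries, the genes outside the cluster with tallest heights most like those of UGT2B15, by the distance over log2(height + 1), were IL10 and MAPKAPK2, which share a peak of 139 tags with DHT against 156 tags with vehicle, followed by CD200, PPIAL4D and PPIAL4H. For UGT2B10 the nearest was DENND1B, with 152 tags with DHT against 164 tags with vehicle, followed by SYNPO2L, PPIAL4G, LUZP2 and FAM237B.

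Of the markers of luminal prostate cells, KRT8 and KRT18, keratins of simple epithelium, shared a promoter peak of 112 tags with DHT against 94 tags with vehicle, and FOLH1, which encodes a membrane antigen of prostate epithelium, had one of 180 tags with DHT against 186 tags with vehicle. Of 4 basal markers 0 had a promoter peak, of 4 leukocyte markers 0 had one, of 4 stroma markers 2 did, of 8 liver markers 1 did (TTR), and of 4 intestine markers 0 did. By the tallest peak within 50 kb, not over the promoter, KLK3, an androgen-induced gene, had 180 tags with DHT against 97 tags with vehicle. Its promoter had a peak of 148 tags with DHT and no vehicle peak. Both values were higher under the DHT label.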

How the data were processed

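The study measured H3K27Ac with DHT, H3K27Ac with vehicle and TCF7L2 by ChIP-seq in LNCaP cells, 1 library each. An input library was not used. The authors aligned H3K27Ac reads with Bowtie 2 and TCF7L2 reads with ELAND to hg19 and called peaks with Sole-search in each library on its own (from the paper), with different settings for the marks; the submitters' processing notes name CASAVA 1.8.2, Bowtie2 and BWA. Each deposited peak carries a signal in whole tags, the top of its pileup, and no source used here says it was scaled to depth. The lists held 60752 DHT, 57623 vehicle and 20955 TCF7L2 peaks. Read numbers are unknown.

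Peaks sharing at least 1 bp were joined to regions, and heights were set side by side. Intervals are exact 95% Poisson intervals for heights and exact binomial intervals for ratios, and cover counting error only. Genes were those of GENCODE release 44 mapped to GRCh37. Backgrounds are the same counts over all genes or regions. Copies were found with BLAST+ 2.17.0, and the share of 32-base words found once was counted over the genome. Overlap, gene and motif code was tested on simulated data. The members and lists were chosen with earlier results of these data known. All 7 genes are named, with pathway genes of a fixed list. Some markers and motifs searched are not reported here. Alternatives covered the surroundings, the fold, scaling by the median ratio, summed heights, the top 25000 or 15000 peaks, the overlap, and regions mapping to 1 place. Biopython 1.88, matplotlib 3.10.9, scipy 1.17.1, numpy 2.4.6 and pandas 2.3.3 ran under Python 3.11.15.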

Additional observations from a re-analysis of the deposited data

How the results depend on the processing

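No paired analysis was possible because each condition had 1 library. Of the 7 genes, 1 was lower with DHT by the tallest peak, and this count was 0 with 100 kb around genes, with a fold of 1.5 and with summed heights, 4 with a fold of 1.1, and 3 with DHT heights divided by the median ratio. The 2 higher genes became 0 with 10 kb around genes and with a fold of 1.5, and 1 with summed heights. The 42 shared regions became 20 among the top 25000 peaks of each list and 18 where at least 80% of words occurred once, and the median ratio of 0.852 became 0.795 with DHT heights divided by the median ratio. The 46 DHT peaks became 17 with 10 kb around genes and 24 in the top 25000, and the 45 vehicle peaks became 17 and 25 under the same settings. The count of 0 TCF7L2 peaks was unchanged with 10 kb, with 100 kb and in the top 15000 peaks. As alternatives chosen after seeing the data, the 15 lower regions from UGT2B17 to UGT2B7 became 8 where at least 80% of words occurred once and 4 where they also reached 50 tags, and the 9 higher regions beside UGT2B11 and UGT2B28 became 1 and 0. The cause of these changes beyond the smaller number of regions or peaks counted was not tested. Without read numbers or replicates, differences in height cannot be told apart from differences in depth.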
